A study of Mus musculus with 74 samples.

Results

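HPC-7 cells, a mouse line of blood progenitors, depend on stem cell factor (SCF), and erythropoietin (EPO) drives them towards the erythroid lineage. The comparison described here is the response of control cells to EPO, read by RNA-seq in 5 of the 15 RNA-seq libraries of the series. The EPO-induced group, Ery Luc, had 2 libraries. Its cells received doxycycline for 72 h and then 4 U/l EPO with SCF at 20 ng/ul for 48 h. The progenitor group, HPC Luc, had 3 libraries. It received doxycycline for 72 h with SCF at 100 ng/ul and no EPO. Units are those of the labels, and another label field of the Ery libraries gives SCF at 100 ng/ul. Both groups held a doxycycline-induced hairpin RNA that targets luciferase, so the hairpin and the drug are common to them. EPO, a further 48 h of culture and, by the label field used here, less SCF changed together and cannot be told apart. The word "inhibitor" stands unexplained in every HPC RNA-seq title and in no Ery title. Whatever it marks, a treatment or something else, cannot be told apart from the stage. The same holds for a batch difference between the stages. Ery shStag2 (2 libraries) and HPC shStag2 (3 libraries) went through the same protocols with a hairpin against Stag2 in place of luciferase. Groups follow the sample labels. Of the 55943 identifiers in the tables, 18065 passed the filter on low counts and were tested, in a fit over all 15 libraries.

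EPO binds its receptor on erythroid progenitors and signals through the kinase JAK2 and the factor STAT5, which sustains survival and division. Factors such as GATA1 and KLF1 then switch on the globins, the enzymes of heme synthesis, iron uptake and the red cell membrane skeleton. Genes of the progenitor state, among them GATA2 and the SCF receptor KIT, are switched off along this path. SCF itself maintains progenitors through KIT, and by the label field used here the Ery medium held less of it.

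The count tables list Ensembl transcript identifiers and give no gene names. Of 55943 identifiers, 0 were found in either gene table used here, so no transcript could be given a gene, a position or a sequence. The expression of globins, Gata1, Klf1, Kit or any other marker was therefore not read. The erythroid label of the EPO-induced cells could not be set against its markers, and the cell type field names stem and progenitor cells for both groups. The account that follows describes how many transcripts changed, at which read counts and by how much, with 4 identifiers in full. Levels are in CPM, the counts of a transcript scaled to the assigned reads of its library. CPM compare a transcript between libraries and not the levels of 2 transcripts, since lengths are unknown. In such bulk libraries fewer cells with a transcript and less of it per cell cannot be told apart.

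Assigned counts were 32324027 and 27229662 in the Ery Luc libraries, and 22826621, 22395582 and 31281941 in the HPC Luc libraries. The floor used here for a transcript at 0, 3 counts per library, corresponds to 0.0928 and 0.11 CPM in Ery Luc and to 0.0959 to 0.134 CPM in HPC Luc. Reads in no annotated feature made up 9.4% and 9.5% of all counted reads in Ery Luc, against 16.2%, 16.4% and 15.1% in HPC Luc. These shares did not overlap between the groups, and their part in the results below was not tested. Identifiers of at least 1 CPM numbered 11500 and 11480 in Ery Luc, against 12409, 12514 and 12245 in HPC Luc. The most counted identifier took 30.9% and 31.3% of assigned counts in Ery Luc, against 31.3%, 30.5% and 33.6% in HPC Luc. Its level did not pass the test (log2 fold change 0.08, SE 0.13, adjusted p = 0.654, edgeR's quasi-likelihood test).

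EPO-induced and progenitor libraries were set apart by the first principal component of log2 CPM over all 15 libraries, which held 48.8% of the variance. Ery Luc libraries lay at 79.2 and 79.4 on it, against -20.5, -23.9 and -12.7 for HPC Luc. Within the 5 libraries alone the first component held 68.2% of the variance and again separated the groups. HPC Luc replicate 3 stood apart from replicates 1 and 2. Chi-square per degree of freedom was 12.2 and 14.9 between it and the others, 4.51 between replicates 1 and 2, and 2.44 between the Ery Luc libraries. All pairs differed by more than sampling noise, and none were merged. Nothing in the labels ties replicate numbers to separate cultures. The p-values therefore reflect only how far these libraries spread, in part perhaps for technical reasons.

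**Figure D1:**
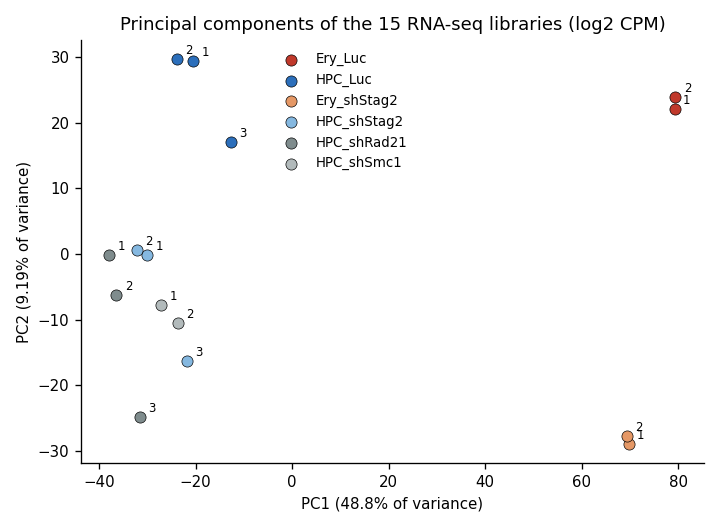
Scores of the 15 RNA-seq libraries on the first 2 principal components of log2 CPM, with replicate numbers beside the points. On the horizontal axis the 2 Ery Luc libraries sit at 79.2 and 79.4 and the 3 HPC Luc libraries between -23.9 and -12.7.

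The EPO comparison asked which transcripts accompany the step from progenitor to erythroid-induced cell. After EPO, 3643 transcripts rose and 3458 fell at an adjusted p under 0.05, which is 39.3% of the 18065 tested (20.2% higher and 19.1% lower). The numbers in both directions were close, but their sizes were not. At least 2-fold changes were found for 2516 transcripts (13.9%), of which 675 rose (3.74%) and 1841 fell (10.2%). At 4-fold or more, 206 rose and 503 fell. At 8-fold or more the counts were 109 and 138, and at 16-fold or more they were 65 and 45. Falling transcripts thus made up most of the moderate changes and rising ones most of the largest. Fitted folds of transcripts at or near 0 in one group depend on the prior count. The median log2 fold change of all 18065 was -0.03.

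The values of the groups did not overlap for 3404 of the 3643 that rose and 3448 of the 3458 that fell. Over all transcripts tested 10749 of 18065 did not overlap, beside the 39.3% called. Without Ery Luc replicate 1, the number that fell was 2203, with the lone Ery Luc library assumed to vary like the other groups. Without HPC Luc replicate 3, the library that stood apart, 3594 rose and 3341 fell, of which 3290 and 3025 were among those called with all libraries. When counts were scaled by the total alone, without TMM factors (edgeR's trimmed mean of M-values), the median moved to -0.14. The split then turned, with 2185 higher and 3900 lower, so that 35.9% of calls were higher against 51.3% with TMM.

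**Figure D2:**
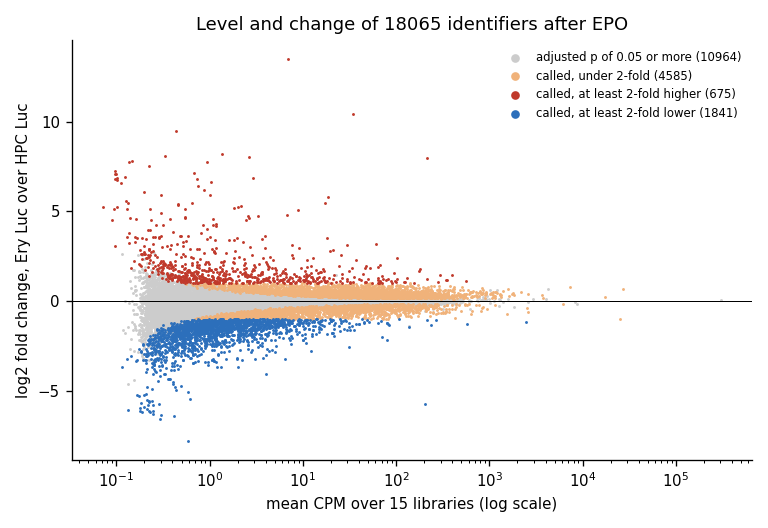
Log2 fold change of Ery Luc over HPC Luc (vertical axis) against mean CPM over the 15 libraries (log scale) for 18065 transcripts, coloured by call. At least 2-fold lower transcripts (1841, blue) lie mostly at low CPM, and at least 2-fold higher ones (675, red) include the largest changes.

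The direction of change went with the read count of the transcript. The classes below are by mean CPM, which grows with a transcript's length as well as its level, so they are classes of read count and not of abundance. Among 6342 transcripts with a mean over the 15 libraries of 10 CPM or more, 2502 rose and 1028 fell. Among 11723 with a mean under 10 CPM, 1141 rose and 2430 fell. The 2-fold changes under 10 CPM were 555 higher and 1736 lower, and those at 10 CPM or more were 120 higher and 105 lower. The balance at 10 CPM or more turned to 104 higher and 119 lower with a filter of 1 CPM in 2 of the 5 libraries. Most of the 2-fold changes thus lay at low read counts. From low to high, the median log2 change of all transcripts was -0.36 under 1 CPM, -0.13 from 1 to 10, 0.13 from 10 to 100, 0.13 from 100 to 1000 and 0.27 at 1000 CPM and over.

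The class of 1000 CPM and over held 55 transcripts, of which 31 rose and 7 fell. Most calls at high read counts were small, with a median absolute log2 fold change of 0.43 among those called from 10 to 100 CPM and 0.36 from 100 to 1000 CPM. Since 11 of the 15 libraries are HPC libraries, the mean leans to HPC values. With a mean from both group means in equal weight, 2532 rose and 948 fell at 10 CPM or more, and 1111 rose and 2510 fell below it. Scaled by the total alone, 1386 rose and 1214 fell at 10 CPM or more. The 2-fold changes there then turned to 87 higher and 147 lower. The share of reads in no feature, 9.4% and 9.5% in Ery Luc and 15.1% to 16.4% in HPC Luc, moved with this pattern, and its part was not tested.

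**Figure D3:**
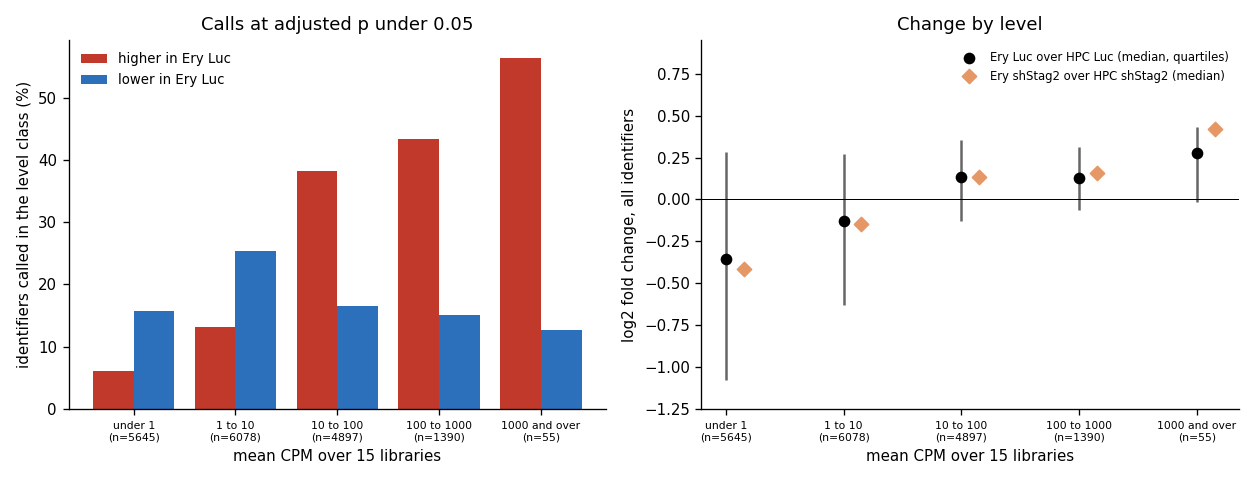
Left, percent of transcripts called higher or lower in Ery Luc within each class of mean CPM (bars start at 0). Right, median and quartiles of the log2 fold change of all transcripts in the class, with the median for the Stag2 hairpin beside it. Calls were mostly lower under 10 CPM (2430 lower and 1141 higher) and mostly higher at 10 CPM or more (2502 higher and 1028 lower).

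Large changes carried few of the reads. The 675 transcripts that rose at least 2-fold took 1.57% and 1.58% of assigned counts in Ery Luc, against 0.553%, 0.554% and 0.571% in HPC Luc. The 1841 that fell at least 2-fold took 0.418% and 0.419% in Ery Luc, against 1.12%, 1.17% and 1.19% in HPC Luc. These sets were chosen by the same values, so the shares describe their weight and test nothing. One transcript alone held 0.139% and 0.144% of the Ery Luc counts. Its level was 1390 and 1435 CPM in Ery Luc, against 6.26, 5.4 and 6.75 CPM in HPC Luc (log2 fold change 7.95, SE 0.15, adjusted p = 6.52e-17, edgeR's quasi-likelihood test). It was singled out after its values were seen, as the highest in CPM among the 12 largest rises.

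A small set of transcripts was near-silent in progenitors and present after EPO. At least 1 CPM in each Ery Luc library, with 3 counts or fewer in every HPC Luc library, was reached by 18 called transcripts, 2 of them with 0 counts in all HPC Luc libraries. Their mean in Ery Luc ran from 1.21 to 47.6 CPM. The reverse pattern was met by 1 transcript, at a mean of 1.47 CPM in HPC Luc.

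Transcripts were chosen for a full account among those called, with groups apart and a mean of at least 5 CPM in the higher group. The 2 largest rises and the 2 largest falls by fold are given. ENSMUST00000103558.2 read 45.9 and 49.3 CPM in Ery Luc (1485 and 1342 counts), against 0 counts in each of the 3 HPC Luc libraries. Its mean was 47.6 ± 2.4 CPM in Ery Luc (SD, n = 2), at least 395-fold higher than the floor of 3 counts per HPC Luc library. The adjusted p was 5.24e-12 in edgeR's quasi-likelihood test. Both Ery Luc libraries were high and close to each other, and the groups did not overlap.

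ENSMUST00000093209.3 read 217 and 225 CPM in Ery Luc, against 0.131, 0.223 and 0.16 CPM in HPC Luc, where it had 3, 5 and 5 counts. It averaged 221 ± 5.6 CPM in Ery Luc (SD, n = 2) and 0.172 ± 0.047 CPM in HPC Luc (SD, n = 3). The log2 fold change was 10.42 (SE 0.18, adjusted p = 3.72e-15, edgeR's quasi-likelihood test). DESeq2 gave 10.47 with an SE of 0.41, so the SE of 0.18 is too narrow a measure of error at these HPC Luc counts. Pooled counts gave a ratio of 1300 (exact 95% interval 759 to 2440, counting error only). The transcript was thus barely above the floor in progenitors and well measured after EPO.

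ENSMUST00000041331.2 showed the largest fall by this rule. It read 5.79 and 6.65 CPM in Ery Luc, against 293, 307 and 475 CPM in HPC Luc. The mean was 6.22 ± 0.61 CPM in Ery Luc (SD, n = 2) and 358 ± 101 CPM in HPC Luc (SD, n = 3), a log2 fold change of -5.74 (SE 0.26, adjusted p = 2.32e-11, edgeR's quasi-likelihood test). HPC Luc replicate 3 was the highest of all 15 libraries, and without it the change was -5.46. Among at least 8-fold falls it was the main carrier of reads, with 0.0293% to 0.0475% of assigned counts in HPC Luc out of 0.0401% to 0.0565% for all 138.

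ENSMUST00000159072.1 read 0.804 and 0.808 CPM in Ery Luc, against 8.46, 8.93 and 7.13 CPM in HPC Luc. Its mean was 0.806 ± 0.0025 CPM in Ery Luc (SD, n = 2) and 8.17 ± 0.93 CPM in HPC Luc (SD, n = 3). It changed by -3.21 on the log2 scale (SE 0.22, adjusted p = 4.58e-09, edgeR's quasi-likelihood test). The pooled ratio was 0.1 (exact 95% interval 0.073 to 0.134, counting error only). It remained detectable after EPO, with 26 and 22 counts.

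**Figure D4:**
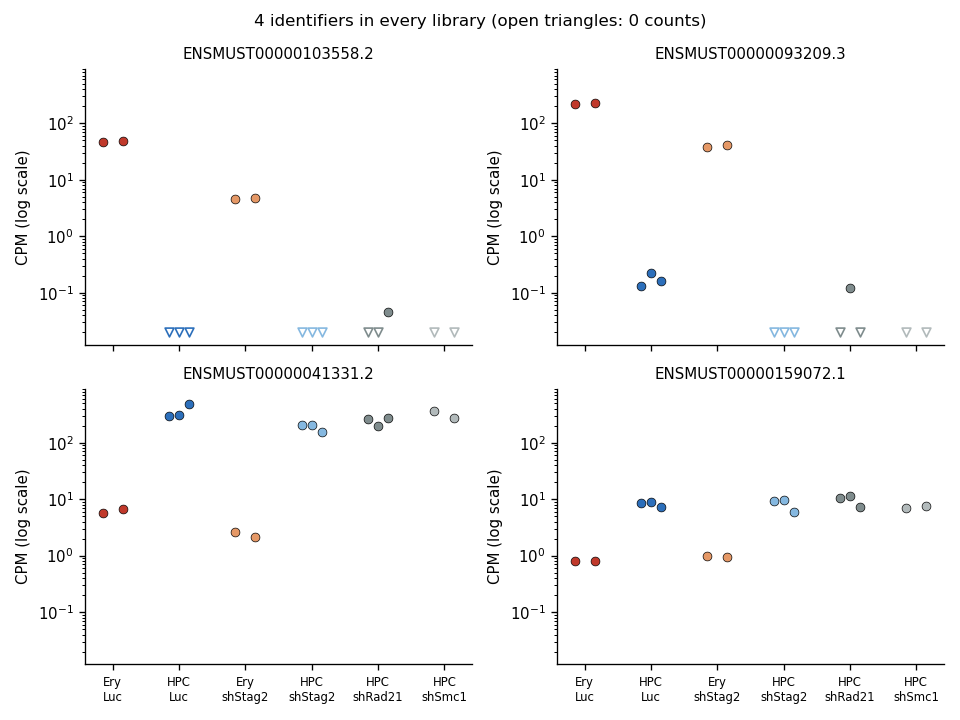
CPM (log scale) of the 4 transcripts in every RNA-seq library, each point a library and each open triangle a library with 0 counts. The upper 2 are high in Ery libraries and at or near 0 in HPC libraries of every hairpin, and the lower 2 are high in all HPC libraries and low in Ery libraries.

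The 12 largest rises and the 12 largest falls by this rule differed, and the rule itself has a part in this. It asks for at least 5 CPM in the higher group. Most of the 138 transcripts that fell at least 8-fold did not meet the rule. The third largest fall by the rule, at a log2 fold change of -2.81, was already under 8-fold. The rises had log2 fold changes of 5.19 to 13.5, means of 6.55 to 1410 CPM in Ery Luc and 0 to 6.14 CPM in HPC Luc, and 9 of the 12 were under 1 CPM in HPC Luc. The falls that met the rule were smaller, from -5.74 to -2.32. Their means were 0.655 to 6.22 CPM in Ery Luc and 5.05 to 358 CPM in HPC Luc. In progenitors 10 of those 12 were under 15 CPM. Of the 12 that fell, 6 were under 1 CPM in Ery Luc.

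The called transcripts with the most reads changed by small folds. Such transcripts can pass the test with smaller folds, and 69.1% were called at 1000 CPM and over, against 21.8% under 1 CPM. The 5 highest in CPM among those called higher had log2 fold changes of 0.16 to 0.80, and groups did not overlap for 4 of them. The first of these stood at 33610 and 33840 CPM in Ery Luc, against 22240, 21050 and 24830 CPM in HPC Luc (log2 fold change 0.69, adjusted p = 0.000112, edgeR's quasi-likelihood test). The 5 highest among those called lower changed by -1.16 to -0.14, with no overlap for any of the 5. The first of these stood at 15280 and 15340 CPM in Ery Luc, against 33990, 32630 and 31460 CPM in HPC Luc (log2 fold change -0.98, adjusted p = 1.75e-05, edgeR's quasi-likelihood test).

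The EPO response was also read in cells with a hairpin against Stag2, a cohesin subunit. The filter and the spread of the fit came from all 15 libraries, so the call lists of the 2 hairpins are not independent. The shStag2 response itself came from other libraries than the Luc groups, 2 of Ery shStag2 and 3 of HPC shStag2. There 3592 transcripts rose (19.9%) and 3587 fell (19.9%), together 39.7% of those tested. Of the 3643 that rose with Luc, 2613 also rose with shStag2, 71.7% of the Luc list and 72.7% of the shStag2 list, and 10 fell. Of the 3458 that fell with Luc, 2324 also fell, 67.2% of the Luc list and 64.8% of the shStag2 list, and 29 rose. At least 2-fold with shStag2, 622 rose (3.44%) and 2051 fell (11.4%), together 14.8%. Of these, 349 also rose at least 2-fold with Luc (51.7% of the Luc list and 56.1% of the shStag2 list), and 1146 also fell (62.2% and 55.9% of these lists). The link between read count and direction was present there too. At 10 CPM or more 2522 rose and 907 fell, and below it 1070 rose and 2680 fell.

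The size of the response was compared between hairpins by the difference of the 2 fold changes in the same fit. It passed for 215 of 18065 transcripts (1.19%), with 119 towards a higher and 96 towards a lower fold change with shStag2. Among the 675 that rose at least 2-fold with Luc, it passed for 51, in 45 of them towards a smaller rise with shStag2. Among the 1841 that fell at least 2-fold, it passed for 17, all towards a smaller fall. The Luc libraries that chose these lists also enter the difference, so these directions are not independent of the choice. Without Ery Luc replicate 1 the difference passed for 72 transcripts, and without replicate 2 for 69. On the third principal component of all 15 libraries (7.36% of the variance), Ery shStag2 lay at 17.7 and 16.2 and Ery Luc at -12.6 and -12.1. The HPC replicates numbered 3 and both HPC shSmc1 libraries were also negative there, and HPC replicates 1 and 2 of the other hairpins were positive. A term that set those negative HPC libraries apart from all others gave 810 transcripts. It left the Ery Luc libraries, negative too, with the positive ones. The part of this split in the differences between hairpins, or in Ery Luc against HPC Luc, was not tested otherwise.

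All 12 of the largest rises also rose with shStag2, and all 12 of the largest falls also fell. The 12 that rose nonetheless had lower levels in Ery shStag2 than in Ery Luc, at 0.098 to 0.292 times the Ery Luc mean. Each of the 12 was called lower in that contrast, which called 3.7% of transcripts lower and 3.99% higher. ENSMUST00000103558.2 read 4.63 and 4.7 CPM in Ery shStag2, against 45.9 and 49.3 CPM in Ery Luc. ENSMUST00000093209.3 read 38.7 and 41.4 CPM in Ery shStag2, against 217 and 225 CPM in Ery Luc. The log2 differences between these Ery groups were -3.35 (SE 0.15, adjusted p = 2.83e-08) and -2.47 (SE 0.12, adjusted p = 6.65e-09, edgeR's quasi-likelihood test). As the 12 were chosen for high values in Ery Luc, the count describes them and is not an independent test. Of the 12 largest falls, 1 was lower in Ery shStag2 than in Ery Luc and 11 were higher, at 0.39 to 2.65 times the Ery Luc mean. That contrast called 1 of these lower and 2 higher. These 12 were chosen for low values in Ery Luc, so their counts too are not an independent test.

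In HPC shStag2 both transcripts had 0 counts in every library. For ENSMUST00000103558.2, with 0 counts in every HPC Luc library too, the difference of responses could not be estimated (SE 4995), so its test decides nothing. For ENSMUST00000093209.3 the difference did not pass the test (adjusted p = 0.354, edgeR's quasi-likelihood test), and its fitted size depends on the prior count. The transcript of 1390 and 1435 CPM in Ery Luc read 204 and 204 CPM in Ery shStag2, against 0.259, 0.42 and 0 CPM in HPC shStag2. Its values in shStag2 libraries were below those in Luc libraries at both stages. ENSMUST00000041331.2 stood at 2.42 ± 0.36 CPM in Ery shStag2 (SD, n = 2) and 190 ± 28 CPM in HPC shStag2 (SD, n = 3). Its response did not pass the test of a difference between hairpins (log2 difference -0.32, SE 0.38, adjusted p = 0.828, edgeR's quasi-likelihood test). It was the 1 fall with a lower level in Ery shStag2 than in Ery Luc (log2 difference -1.37, SE 0.34, adjusted p = 0.0151). ENSMUST00000159072.1 stood at 0.969 ± 0.015 CPM in Ery shStag2 and 8.34 ± 2 CPM in HPC shStag2, with a log2 difference of responses of 0.34 (SE 0.33, adjusted p = 0.78).

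**Figure D5:**
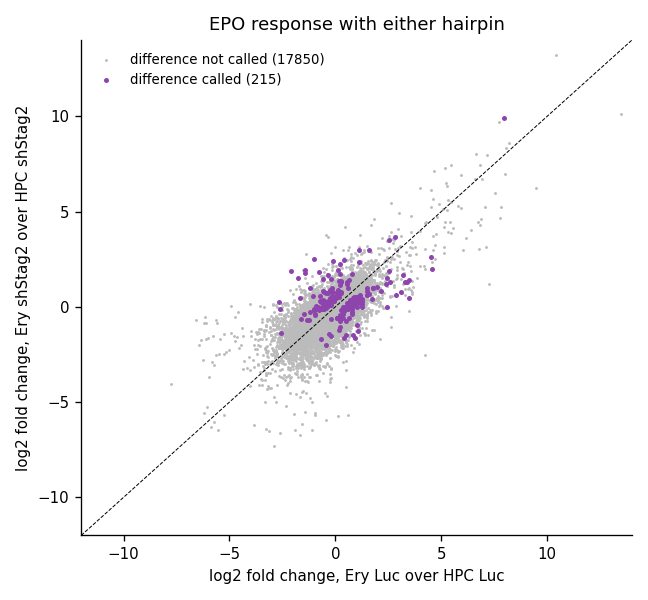
Log2 fold change after EPO with the Stag2 hairpin (vertical axis) against that with the Luc hairpin (horizontal axis) for 18065 transcripts, with the line of equal change. Of the 3643 transcripts that rose with Luc, 3486 had the same sign with shStag2, as had 3286 of the 3458 that fell. The 215 transcripts whose difference was called are coloured.

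In the other HPC groups, with hairpins against Rad21 and Smc1a (both cohesin subunits), the 4 transcripts stayed on the progenitor side. ENSMUST00000103558.2 had at most 1 count in any of these libraries and ENSMUST00000093209.3 at most 4. ENSMUST00000041331.2 averaged 244 ± 41 CPM in HPC shRad21 (SD, n = 3) and 318 ± 67 CPM in HPC shSmc1 (SD, n = 2). ENSMUST00000159072.1 averaged 9.79 ± 2.1 CPM in HPC shRad21 and 7.2 ± 0.46 CPM in HPC shSmc1.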

How the data were processed

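RNA-seq was measured in 15 libraries of 6 groups. The authors deposited raw read counts per transcript identifier, 1 table per library. STAR 2.4.0, HTSeq and the build mm10 are named in the submitters' processing notes. How HTSeq was set, whether it used strand and which annotation it read is not given in the sources used here. Values of transcripts that overlap or nearly share their sequence are uncertain for that reason. The 5 closing lines of each table, which name no transcript, were left out. They held 24.2% to 26.9% ambiguous reads and 9.19% to 18% of reads in no feature. Assigned counts ran from 22288469 to 33355332 per library, and p-values rest on these depths.

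Transcripts were filtered with filterByExpr, scaled with TMM and fitted by quasi-likelihood in edgeR 4.0.16 (R 4.3.3). The fit took the means of 6 groups from 15 libraries, which left 9 residual degrees of freedom. The Ery Luc against HPC Luc contrast was tested with Benjamini-Hochberg adjustment over 18065 transcripts at 0.05. A standard error is the absolute log2 fold change over the root of F. CPM are relative to total assigned counts. Intervals and floors cover counting error only. The procedure was tested on simulated data.

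Named transcripts are the first 2 in each direction by fold, with at least 5 CPM in the higher group and no overlap. The comparison, the 28 gene lists and the alternatives were chosen with earlier results of these data known. As no identifier was matched to a gene, the gene lists, marker checks, promoter motifs and the join with promoter contacts were not run, and the promoter interaction lists were not used here. Alternatives were scaling (RLE, total counts), DESeq2 1.42.0, filters, libraries in the fit, replicate blocks, a term for the HPC libraries that stood apart and leaving out libraries.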

Additional observations from a re-analysis of the deposited data

Results flagged for a closer look

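The EPO response differed between the Stag2 and the Luc hairpin for 215 of 18065 transcripts by the test of the difference in edgeR's quasi-likelihood model. Of the 12 largest rises, 1 differed, the transcript of 1390 and 1435 CPM in Ery Luc. Its fold change was larger with shStag2 by 1.94 on the log2 scale (SE 0.37, adjusted p = 0.0105), although its level was lower in Ery shStag2 (204 CPM) than in Ery Luc (1410 CPM). Its mean was 0.226 CPM in HPC shStag2, against 6.14 CPM in HPC Luc. The HPC shStag2 values were 0.259, 0.42 and 0 CPM, near the floor of 0.109 CPM, so the fitted size of the difference is uncertain. Of the 12 largest falls, 1 differed. It averaged 14.4 CPM in Ery shStag2 and 44.1 CPM in HPC shStag2, and 5.43 CPM in Ery Luc and 34.2 CPM in HPC Luc. Its fall was smaller with shStag2, by a log2 difference of 1.16 (SE 0.14, adjusted p = 0.000167).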

How the results depend on the processing

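The log2 fold changes of the 4 named transcripts kept their direction and stayed past the threshold under all 15 alternatives. They were chosen for large called changes in these same libraries, so this describes them and is not an independent test. The counts of called transcripts varied more. With a filter of 1 CPM in 2 of the 5 libraries, 425 rose and 1174 fell at least 2-fold, on 12781 transcripts tested. Scaling by total counts, an alternative chosen after seeing the data, gave 2185 higher. Leaving out 1 library gave 2572 to 3594 higher, 2203 to 3341 lower, 587 to 761 at least 2-fold higher and 1324 to 1785 at least 2-fold lower. The number of transcripts whose response differed between hairpins was 544 with no filter, 360 with DESeq2, 126 scaled by total counts and 69 to 276 with 1 library left out. It was 773 with the replicate number as a block and 810 with a term for the HPC libraries that stood apart (replicates 3 and shSmc1). The cause was not tested. The deviations of same-numbered Ery Luc and HPC Luc libraries gave r = -0.003 and 0.0222. With 2 Ery Luc libraries the deviations of each mirror those of the other, so these values cannot decide whether the numbers pair libraries. With the replicate block, 4293 rose and 3988 fell in all libraries, and 4116 and 3825 in the 5 compared. Summing transcripts per gene was not run. Transcripts under 3 counts cannot be told from absent.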
